A study of Mus musculus with 6 samples.

Results

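Respiratory complex I (NADH:ubiquinone oxidoreductase) is the entry point for electrons into the mitochondrial respiratory chain. It passes electrons from NADH to ubiquinone and pumps protons across the inner mitochondrial membrane. Most of its subunits are encoded in the nucleus and the rest in mitochondrial DNA. The nuclear subunits were followed here as every protein-coding row of the count table whose gene name begins with Nduf, then a, b, c, s or v, then a digit. The pattern matched 41 rows, of which 37 were protein-coding, out of 54532 genes. Of the 37 genes, 35 encode complex I subunits, while Ndufa4 and Ndufa4l2 carry only the family name. The 37 genes lie on 15 chromosomes, and all of them passed the filter on low counts, among 18868 genes that did.

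The measurements were RNA-seq of mouse oocytes in 6 libraries, 3 of them from mice given AMH and 3 from controls. AMH is anti-Müllerian hormone, made by granulosa cells and known for restraining the recruitment of resting follicles. The AMH mice were C57BL/6J animals given 300 ng of recombinant mouse hormone, made in E. coli, by daily intraperitoneal injection beginning at 21 days of age. The control mice were of the same strain, and both groups are labelled as 6 to 7 weeks old. The labels do not say whether controls were injected, how many oocytes of which stage entered a library, whether cumulus cells were removed or whether each library came from separate animals. Any p-value given here thus refers to how these 6 libraries scattered, and that scatter may be technical.

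The matrix arm of complex I takes up NADH and carries a flavin and a chain of iron-sulfur clusters to the quinone site, and the membrane arm pumps protons. Core subunits do the catalysis and are shared with bacteria, while accessory subunits surround them and serve assembly and stability. Growing oocytes make ATP mainly by oxidising pyruvate in mitochondria, much of it supplied by cumulus cells. Early oocytes of humans and Xenopus have been described as lacking assembled complex I.

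Promoters are shown here as a description of the genes, and whether their sequence bears on the values was not tested. RefSeq windows on GRCm38.p6, each running from 250 bases before to 50 bases after the gene start, matched 32 of the 37 genes by symbol. Ndufa2, Ndufb9, Ndufs1 and Ndufa4l2 were among those without a window. The word AAGATGGC, a core of YY1 sites, was searched on both strands and found in 7 of the 32 genes (21.9%), against 3.19% of 27025 genes. All 7 matches lay on the gene strand, with their first base 23 to 39 bases past the start, and the ATG inside each was an annotated start codon in GENCODE M21. The 7 sites follow with 30 bases each and the word in capitals.
Ndufa3, chr7:3617384-3617413, plus strand: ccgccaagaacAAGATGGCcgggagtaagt
Ndufa9, chr6:126849097-126849126, minus strand: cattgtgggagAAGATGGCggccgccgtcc
Ndufb8, chr19:44555393-44555422, minus strand: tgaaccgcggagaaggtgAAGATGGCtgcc
Ndufc1, chr3:51408915-51408944, minus strand: gcctgcggaacAAGATGGCgccgtccgtag
Ndufs4, chr13:114388045-114388074, minus strand: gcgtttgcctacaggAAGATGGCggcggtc
Ndufs6, chr13:73328433-73328462, minus strand: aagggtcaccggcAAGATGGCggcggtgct
Ndufs7, chr10:80249462-80249491, plus strand: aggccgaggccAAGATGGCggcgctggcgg
A match describes the letters of the window and is no evidence of binding.

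The NRF1 word GCATGCGC was found in Ndufa11, Ndufa6 and Ndufa8 (9.38%), against 3.05% of the 27025 genes. The ETS word CCGGAAG was found in 12.5% of the 32 genes against 9.93%, the ERR word CAAGGTCA in 3.13% against 1.76%, and CCAAT in 31.3% against 41.1%. Both strands were searched for each word. Median GC content was 59.0% in the members' windows and 52.7% in all windows. A pair of 120-base upstream stretches is given, from the gene with the smallest p (Ndufa11, chr17:56717642-56717761, plus strand) and the gene of opposite direction (Ndufa10, chr1:92473861-92473980, minus strand). Capitals mark the NRF1 word, whose matches on the opposite strands overlap in Ndufa11. The Ndufa11 stretch runs from position -120 to -1 relative to its RefSeq start. The Ndufa10 stretch lies farther upstream, from -222 to -103, because the deposited gene begins 102 bases upstream of it. None of the words searched is in the Ndufa10 stretch.
Ndufa11: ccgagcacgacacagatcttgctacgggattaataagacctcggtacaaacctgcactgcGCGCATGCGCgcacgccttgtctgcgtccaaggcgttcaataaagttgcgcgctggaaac
Ndufa10: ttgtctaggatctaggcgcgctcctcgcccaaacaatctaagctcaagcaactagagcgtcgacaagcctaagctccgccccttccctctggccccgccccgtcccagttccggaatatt

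Libraries held 69395450, 66569227 and 66392859 counts in AMH 1, 2 and 3, and 72109080, 71804729 and 69997949 in controls 1, 2 and 3. Summed CPM of 21 oocyte markers was 15644 to 26394 in AMH and 26917 to 35426 in control libraries. Of these markers 15 were below every control, where 23.3% of all genes tested were, and Sohlh1 was at 0 in some library. For 20 cumulus and granulosa markers the sums were 2699, 2397 and 2626 CPM in AMH 1, 2 and 3, against 484, 288 and 2776 CPM in controls 1, 2 and 3. Control 3 thus stood with the AMH libraries for the sum of these markers. Of the 20, 7 were above every control and 1 below, where 26.9% and 23.3% of all genes tested were. Pgr was at 0 in some library. AMH 3 and control 3 were also the closest pair of libraries over all genes, at a chi-square statistic of 55.9 per degree of freedom. Marker sums of 8 oviduct genes (150.0 to 727 CPM in AMH and 42.2 to 183 in control), 8 leukocyte genes (78.6 to 107 and 14.1 to 35.2) and 5 red cell genes (22.8 to 357 and 1.11 to 5.64) did not overlap for leukocyte and red cell genes, and did for oviduct genes. Those of 6 endothelial genes were 115 to 199 CPM in AMH and 206 to 247 in control. Most of that sum was Pecam1, at 87.5, 97.7 and 143 CPM in AMH and 177, 187 and 145 CPM in control libraries. Of the 6, 2 were below every control. Cdh5 was above, at 2.64, 1.96 and 1.74 CPM in AMH and 0.403, 0.265 and 1.59 CPM in control libraries. No marker was at 0 in all 6 libraries, and the part of these other cells in the results on complex I was not tested. In such bulk samples fewer cells of a type and less RNA per cell cannot be told apart.

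Transcripts of the 37 genes had higher mean values in AMH than in control libraries in every module of the complex, for all genes but Ndufa10. The sign of Ndufa4 turned under upper-quartile scaling, and that of Ndufa10 under scaling to the oocyte markers. The 37 genes together took 0.184%, 0.162% and 0.125% of all counts in AMH 1, 2 and 3, against 0.0656%, 0.0507% and 0.0850% in controls 1, 2 and 3. Their median CPM, on TMM-scaled library sizes, was 36.6, 33.1 and 29.6 in the AMH libraries and 13.9, 9.23 and 17.7 in the controls. The groups did not overlap in either sum or median. The median log2 fold change of AMH over control was 1.31, a fold of 2.48, with a range of -0.34 to 1.86, against -0.01 over all 18868 genes tested and 0.10 over 15249 protein-coding genes. It was positive for 36 of the 37 and at least 1 for 29 of them.

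In edgeR's quasi-likelihood test 0 of the 37 had an adjusted p under 0.05. No gene of the 18868 passed it either (0%), and the lowest adjusted p of any gene was 0.116. Without adjustment, 33 of the 37 were higher with a p under 0.05 and 0 lower, where 20.2% of all genes were higher and 17.3% lower. Every AMH library was above every control for 34 of the 37, where 26.9% of all genes were, and below for 1, where 23.3% were. DESeq2 called 33 of the 37 higher, where it called 16.4% of 18038 genes higher. The genes it did not call were Ndufa10, Ndufa4, Ndufs1 and Ndufb6. limma-voom called 0 of 37, and limma on log2(FPKM + 1) called 0 of the 36 that passed its filter. No share over all genes is given for these fits, so their 0 cannot be read as particular to the 37.

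**Figure D1:**
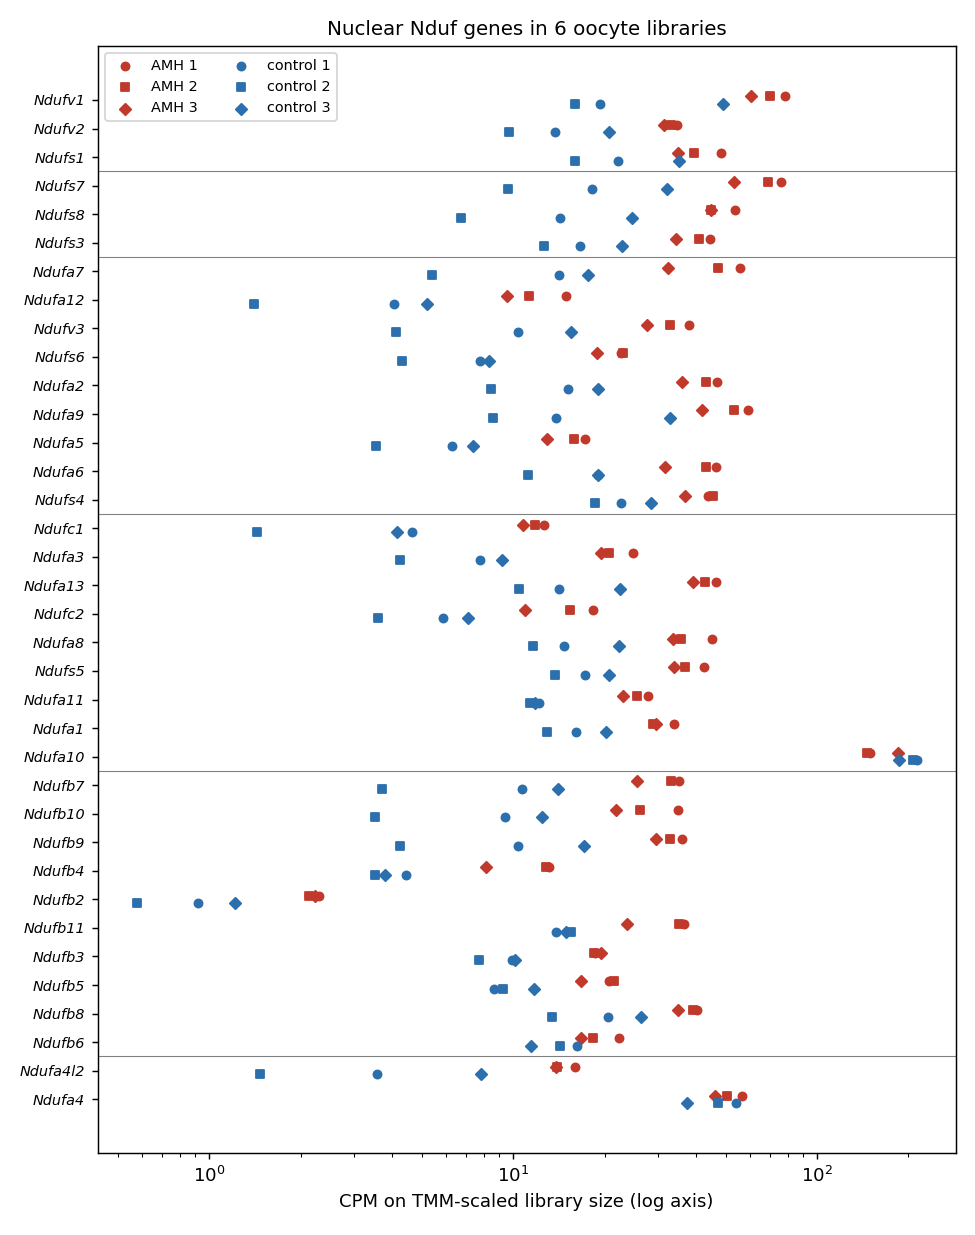
CPM of 36 of the 37 Nduf genes (log axis, 1 row per gene, grouped by place in the complex by grey lines) in the 3 AMH libraries (red) and 3 control libraries (blue), with a marker shape for each replicate number. Red points lie right of all blue points in 33 rows, overlap them for Ndufs1 and Ndufa4, and lie left of them for Ndufa10.

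The call depended on single libraries. Without control 3, edgeR called 34 of the 37, all higher, and the genes not called were Ndufa10, Ndufa4 and Ndufb6. Without AMH 3 it called 6, which were Ndufa6, Ndufs5, Ndufb11, Ndufa11, Ndufs6 and Ndufb4. With both left out, an alternative added after the data were seen, it called 34 higher and 1 lower (Ndufa10) at a median log2 fold change of 1.775. Over all genes the counts called were 7513 of 19770 without control 3, 1607 of 19638 without AMH 3 and 9885 of 19381 without both.

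The order of the libraries was much the same from gene to gene. AMH 1 was the highest library for 32 of the 37 and control 2 the lowest for 32. AMH 3 was the lowest AMH library for 33 and control 3 the highest control for 29. The complete order AMH 1, AMH 2, AMH 3, control 3, control 1, control 2 held for 22 genes. The first principal component of their centred log2 CPM held 96.3% of the variance. That share includes Ndufa10, which ran opposite to the mean of the 37 (r = -0.87). No such order or share over all genes is given, so neither can be called particular to the 37.

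AMH 3 and control 3 had near-equal marker sums, at 2626 and 2776 CPM for cumulus and granulosa markers and 26394 and 26917 CPM for oocyte markers. Single cumulus and granulosa markers differed in both directions between AMH 3 and control 3. Inha had 1227 and 915 CPM, and Tnfaip6 had 43.5 and 164 CPM. The near-equal sums thus do not show that cumulus content was matched. The same libraries differed for leukocyte markers, at 85.8 CPM in AMH 3 and 35.2 CPM in control 3, and for red cell markers, at 22.8 and 5.64 CPM. Between AMH 3 and control 3, 35 of the 37 genes were higher in AMH 3, at a median log2 ratio of 0.74, against 0.00 over 18113 genes. Between AMH 1 and 2 and controls 1 and 2, 36 of 37 were higher, at a median of 1.75 against -0.10. The first of these ratios rests on 1 library a side, with no replicate check. With the cumulus marker level as a covariate the median over all 6 libraries was 0.87.

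**Figure D2:**
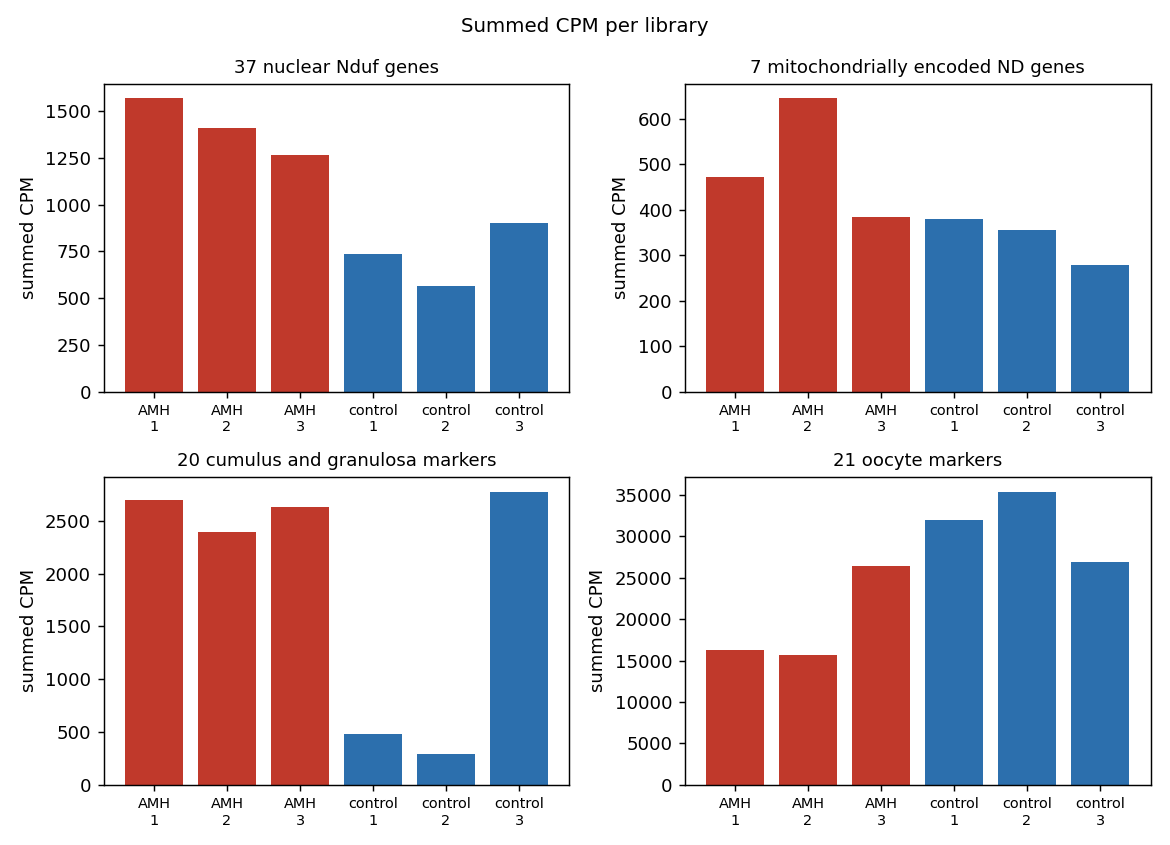
Summed CPM per library (bars from 0; AMH red, control blue) of the 37 Nduf genes, the 7 mitochondrially encoded ND genes, 20 cumulus and granulosa markers and 21 oocyte markers. Control 3 stands with the AMH libraries for the cumulus markers but below them for the Nduf genes, at 903 CPM against 1264 in AMH 3.

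The NADH-oxidising end of the complex is built from Ndufv1, Ndufv2 and Ndufs1. Ndufv1 (chr19:4007497-4012806), which holds the flavin and the NADH site, had 78.3, 70.0 and 60.8 CPM in AMH 1, 2 and 3 and 19.3, 16.0 and 49.1 CPM in controls 1, 2 and 3. Its groups did not overlap, and control 3 was more than both other controls together. The log2 fold change was 1.31 ± 0.44 (SE; edgeR adjusted p = 0.117). Ndufv2, an iron-sulfur protein beside it, had 34.7, 33.1 and 31.3 CPM in AMH and 13.8, 9.73 and 20.7 CPM in control libraries. The AMH libraries were close together and all above the controls, with a log2 fold change of 1.17 ± 0.30 (edgeR adjusted p = 0.116). Ndufs1 (chr1:63143596-63176833), the largest core subunit and carrier of several iron-sulfur clusters, had 48.3, 39.4 and 34.9 CPM in AMH and 22.1, 16.0 and 35.2 CPM in control libraries. It overlapped, since control 3 was just above AMH 3. Its log2 fold change of 0.74 ± 0.32 was the smallest of the 7 core subunits (edgeR adjusted p = 0.135).

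The core subunits that lead electrons to ubiquinone did not overlap between groups for any of the 4, at a median log2 fold change of 1.44. Over all genes tested 26.9% were above every control. Ndufs7 (chr10:80249121-80256794), which carries the last iron-sulfur cluster before the quinone, had 76.3, 69.0 and 53.3 CPM in AMH and 18.2, 9.60 and 32.2 CPM in control libraries. This was the largest difference among core subunits, at a log2 fold change of 1.73 ± 0.44 (edgeR adjusted p = 0.116). Ndufs8, another iron-sulfur subunit, had 53.6, 44.8 and 44.8 CPM in AMH and 14.3, 6.73 and 24.6 CPM in control libraries. Control 2 was lowest here as it was for most genes, and the log2 fold change was 1.65 ± 0.45 (edgeR adjusted p = 0.116).

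Ndufs3, a structural core subunit of the quinone module, had 44.3, 41.0 and 34.4 CPM in AMH and 16.6, 12.6 and 22.8 CPM in control libraries. Its groups were well apart, at a log2 fold change of 1.204 ± 0.27 (edgeR adjusted p = 0.116).

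Accessory subunits of the matrix arm had the highest median log2 fold change of the places in the complex, 1.56. All 9 were above every control, where 26.9% of all genes tested were. No test of the differences between places was made. Ndufs6, a zinc-binding subunit where the NADH and quinone modules meet, had 22.6, 22.9 and 18.9 CPM in AMH and 7.76, 4.32 and 8.36 CPM in control libraries. Even the lowest AMH library was more than double the highest control, at a log2 fold change of 1.66 ± 0.31 (edgeR adjusted p = 0.116). Ndufa2, which has a thioredoxin-like fold, had 47.0, 43.1 and 35.9 CPM in AMH and 15.1, 8.46 and 19.0 CPM in control libraries. Its log2 fold change was 1.56 ± 0.32, with groups far apart (edgeR adjusted p = 0.116).

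Ndufa6, which anchors an acyl carrier protein to the matrix arm, had 46.4, 43.0 and 31.6 CPM in AMH and 19.1, 11.2 and 19.0 CPM in control libraries. Controls 1 and 3 were alike and well below AMH 3, at a log2 fold change of 1.30 ± 0.28 (edgeR adjusted p = 0.116). Ndufa9, a nucleotide-binding subunit near the quinone site, had 59.4, 53.2 and 41.8 CPM in AMH and 13.9, 8.60 and 32.8 CPM in control libraries. It had the largest unadjusted p of the 9, 0.0205, at a log2 fold change of 1.48 ± 0.49, and its controls were widely spread. Ndufa7, named after its values were seen, had the largest log2 fold change of all 37, 1.86 ± 0.46, with 55.6, 47.4 and 32.2 CPM in AMH and 14.1, 5.42 and 17.7 CPM in control libraries.

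Of the 9 accessory subunits in the part of the membrane arm near the matrix arm, 8 were above every control and Ndufa10 was below. Over all genes tested 26.9% were above and 23.3% below. Ndufa11 (chr17:56717767-56722141), a membrane protein related to mitochondrial import translocases, had 27.8, 25.6 and 23.0 CPM in AMH and 12.2, 11.3 and 11.8 CPM in control libraries. Both groups were tight, and its unadjusted p of 0.000807 was the smallest of the 37, at a log2 fold change of 1.11 ± 0.20 (edgeR adjusted p = 0.116). Ndufs5, on the intermembrane-space face, had 42.5, 36.7 and 33.9 CPM in AMH and 17.2, 13.7 and 20.7 CPM in control libraries. Its groups were apart, at a log2 fold change of 1.13 ± 0.23 (edgeR adjusted p = 0.116). Ndufa3, a small membrane-spanning subunit, had 24.8, 20.8 and 19.5 CPM in AMH and 7.76, 4.26 and 9.21 CPM in control libraries. All AMH libraries were more than double every control, at a log2 fold change of 1.62 ± 0.33 (edgeR adjusted p = 0.116).

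Ndufa10 (chr1:92439010-92473860) went against the others. It encodes a nucleoside-kinase-like subunit on the matrix face of the membrane arm. It had 149, 146 and 185 CPM in AMH 1, 2 and 3 and 213, 207 and 186 CPM in controls 1, 2 and 3. The groups did not overlap, though AMH 3 and control 3 were almost equal. The log2 fold change was -0.34 ± 0.16 (edgeR adjusted p = 0.158), and it became 0.39 when libraries were scaled to the oocyte markers. Protein-coding genes over 50 CPM, the class of Ndufa10, had a median of -0.46, which has the same sign. The spread of that class is not given. Ndufa10 made up 9.49%, 10.3% and 14.6% of all counts of the 37 genes in AMH 1, 2 and 3, and 29.0%, 36.5% and 20.7% in controls 1, 2 and 3. The other genes together summed to 1421, 1264 and 1079 CPM in AMH libraries, against 521, 360.1 and 716 CPM in controls.

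The part of the membrane arm farthest from the matrix arm held 10 genes, at a median log2 fold change of 1.205. All were above every control, where 26.9% of all genes tested were. Ndufb4 had 13.1, 12.8 and 8.16 CPM in AMH and 4.45, 3.52 and 3.79 CPM in control libraries. Its controls were tight and AMH 3 lay between them and the other AMH libraries, at a log2 fold change of 1.53 ± 0.29 (edgeR adjusted p = 0.116). Ndufb11, an X-linked membrane subunit, had 36.6, 35.1 and 23.8 CPM in AMH and 13.8, 15.5 and 14.9 CPM in control libraries. Control 2 was here the highest control, and the log2 fold change was 1.11 ± 0.23 (edgeR adjusted p = 0.116).

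Ndufb3, a small membrane-spanning subunit, had 18.6, 18.5 and 19.5 CPM in AMH and 9.91, 7.75 and 10.2 CPM in control libraries. The AMH libraries were almost equal and AMH 3 was the highest, at a log2 fold change of 1.02 ± 0.22 (edgeR adjusted p = 0.116). Ndufb6 had the largest p of the 10, with 22.3, 18.3 and 16.7 CPM in AMH and 16.2, 14.3 and 11.4 CPM in control libraries. AMH 3 and control 1 nearly met, at a log2 fold change of 0.45 ± 0.24 (edgeR adjusted p = 0.185).

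Ndufa4 and Ndufa4l2 carry the family name, but Ndufa4 is now known as a subunit of cytochrome c oxidase (complex IV), and Ndufa4l2 is its hypoxia-inducible relative. Ndufa4 had 56.4, 50.5 and 46.0 CPM in AMH and 54.2, 47.1 and 37.3 CPM in control libraries. The groups overlapped, at a log2 fold change of 0.14 ± 0.20 (edgeR adjusted p = 0.577) that became -0.10 with upper-quartile scaling. Ndufa4l2 had 15.9, 13.9 and 13.8 CPM in AMH and 3.57, 1.47 and 7.83 CPM in control libraries. Its groups were apart, at a log2 fold change of 1.76 ± 0.58 (edgeR adjusted p = 0.116). Ndufa4l2 lies over Shmt2 on the opposite strand. Such an overlap with a gene of at least 10 counts on average was found for 13 of the 37 genes. Whether the counting used strand is not given in the sources used here, so reads of such pairs may be shared.

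**Figure D3:**
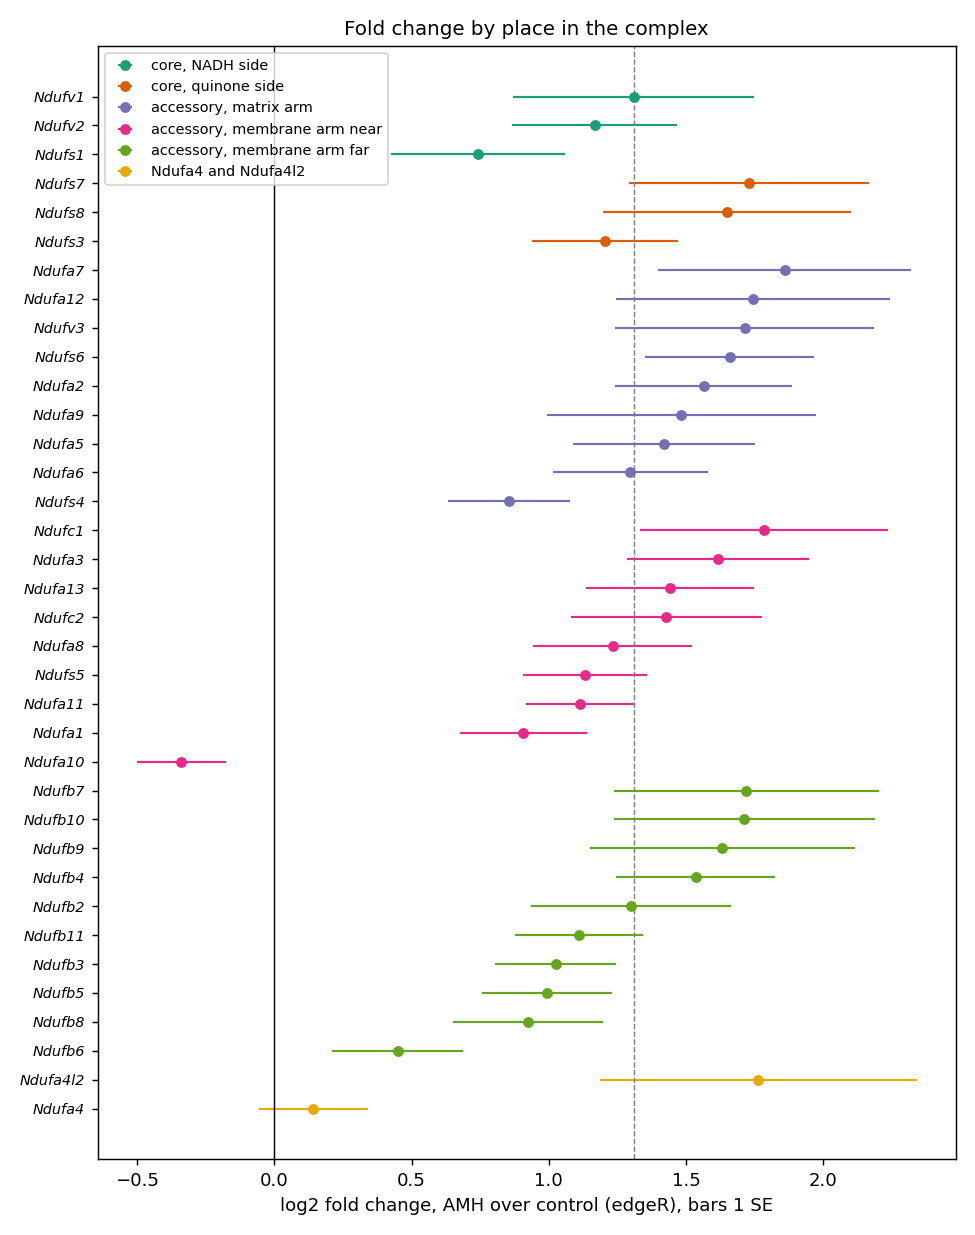
Log2 fold change of AMH over control for 36 of the 37 genes (points; bars are 1 SE; edgeR), coloured by place in the complex, with the median of all 37, 1.31, as a dashed line. Ndufa10 at -0.34, Ndufa4 at 0.14 and Ndufb6 at 0.45 stand farthest left.

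Levels per length gave another order of the genes in each group. In FPKM, the authors' values per kilobase, the highest of the 37 in AMH libraries were Ndufa2 at 71.5 ± 11.4 and Ndufa1 at 71.3 ± 7.56 (SD, n = 3), which did not differ beyond their spread. Ndufs8 at 48.2 ± 6.03 and Ndufa10 at 46.4 ± 4.91 were lower, and their ranges of 1 SD overlapped. In control libraries Ndufa10 was highest at 58.1 ± 4.62 FPKM, ahead of Ndufa1 at 37.4 ± 7.93, Ndufa4 at 32.1 ± 6.25 and Ndufa2 at 23.7 ± 8.75 (SD, n = 3). The lowest in both groups was Ndufb2, a subunit of the far membrane arm, at 0.383 in AMH and 0.153 in control libraries. These ranks rest on the deposited gene lengths, and that of Ndufb2 is 5628 bases. Ndufb2 also overlaps Braf on the opposite strand. The median level was 22.7 FPKM in AMH and 8.19 FPKM in control libraries.

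The log2 fold change was not ordered by gene length among the 37 (Spearman rho = -0.08 across genes, which are not independent replicates) and was weakly lower at higher mean CPM (rho = -0.34). Over all protein-coding genes length did go with it. Genes of at most 1000 bases had a median of 0.61, with 45.4% above every control, and genes over 2500 bases had 0.02, with 25.4%. The 10 members of at most 1000 bases had a median of 1.18 and the 8 over 2500 bases 0.96. Level went with it too over protein-coding genes. Their median was 0.60 up to 10 CPM, 0.51 from 10 to 20, 0.12 from 20 to 50 and -0.46 over 50 CPM. In the classes up to 50 CPM the members had medians of 1.74, 1.42 and 1.30, for 5, 9 and 21 genes.

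Assembly factors had a smaller median difference than the subunits. edgeR called 0 of 16 complex I assembly factors, and 0 of all 18868 genes tested. Assembly factors help build the complex and are absent from the finished one. Their median log2 fold change was 0.62, and 6 were higher and 0 lower when p was taken without adjustment at 0.05, against 20.2% and 17.3% of all genes. Ndufaf5, which modifies Ndufs7, had 3.94, 3.19 and 2.00 CPM in AMH and 1.41, 1.18 and 1.43 CPM in control libraries, at a log2 fold change of 1.18 ± 0.35. Ndufaf8, its partner, had 12.8, 9.98 and 11.4 CPM in AMH and 7.34, 6.45 and 7.17 CPM in control libraries, at 0.71 ± 0.23. Both had non-overlapping groups.

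Ndufaf3 and Ndufaf4, partners in early assembly, had opposite signs. Ndufaf3 had 11.6, 7.67 and 9.29 CPM in AMH and 2.42, 1.54 and 5.44 CPM in control libraries, at a log2 fold change of 1.604 ± 0.50. Ndufaf4 had 29.7, 27.2 and 27.2 CPM in AMH and 47.3, 54.4 and 27.2 CPM in control libraries, at -0.62 ± 0.28, with control 3 among the AMH values. The other factors with negative values were Ndufaf2, a relative of Ndufa12, at -0.36 ± 0.23, and Tmem70, known for complex V assembly, at -0.06 ± 0.16.

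The 7 ND subunits encoded in mitochondrial DNA form the core of the membrane arm. Together they had 473, 646 and 383 CPM in AMH libraries, against 381, 356 and 278 CPM in controls, with AMH 3 almost at control 1. Their log2 fold changes ran from -0.02 to 0.78 with a median of 0.60, and 2 of 7 were above every control, a share near the 26.9% of all genes. Both ends of this range were imprecise. They were mt-Nd4l at -0.02 ± 0.66 (SE), with 6 to 26 counts a library, and mt-Nd6 at 0.78 ± 0.52. The ratio of nuclear to mitochondrially encoded sums was 3.32, 2.18 and 3.30 in AMH 1, 2 and 3 and 1.93, 1.59 and 3.24 in controls 1, 2 and 3. Control 3 was inside the AMH range of this ratio. Ndufab1, the acyl carrier subunit, which the name pattern leaves out, had 48.9, 40.7 and 50.7 CPM in AMH and 54.2, 52.1 and 37.8 CPM in control libraries. Its groups overlapped, at a log2 fold change of -0.04 ± 0.20.

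Nuclear genes of complexes III, IV and V had a median log2 fold change of 1.35 over 34 genes. Of these 32 were above every control, where 26.9% of all genes tested were. The 35 complex I subunits, leaving out Ndufa4 and Ndufa4l2, had a median of 1.31, with 33 above every control. By complex, the medians were 0.80 for the 4 genes of complex II, 1.49 for 9 of complex III, 0.92 for 10 of complex IV and 1.31 for 15 of complex V. edgeR called 0 in each list, and 0 of all 18868 genes tested. The lists share the same libraries, and no test of the differences between them was made.

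Of 12 regulators of mitochondrial biogenesis, 3 were above and 5 below every control, at a median log2 fold change of 0.27. Over all genes tested 26.9% were above and 23.3% below. Tfam, which packages and transcribes mitochondrial DNA, had 13.8, 12.7 and 10.3 CPM in AMH and 3.51, 4.30 and 6.79 CPM in control libraries, at 1.33 ± 0.32. Yy1, whose sites resemble the word shown above, had 7.87, 8.44 and 8.07 CPM in AMH and 3.74, 1.75 and 5.41 CPM in control libraries, at 1.16 ± 0.42. Both had groups that did not overlap. Nrf1, an activator of nuclear respiratory genes, had 72.4, 69.3 and 75.6 CPM in AMH and 100.3, 112 and 86.1 CPM in control libraries, at -0.46 ± 0.16. Ppargc1b, a coactivator of the same programme, had 14.7, 20.6 and 19.5 CPM in AMH and 33.5, 36.0 and 20.8 CPM in control libraries, at -0.72 ± 0.28. Every AMH library was below every control for both, narrowly for Ppargc1b.

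**Figure D4:**
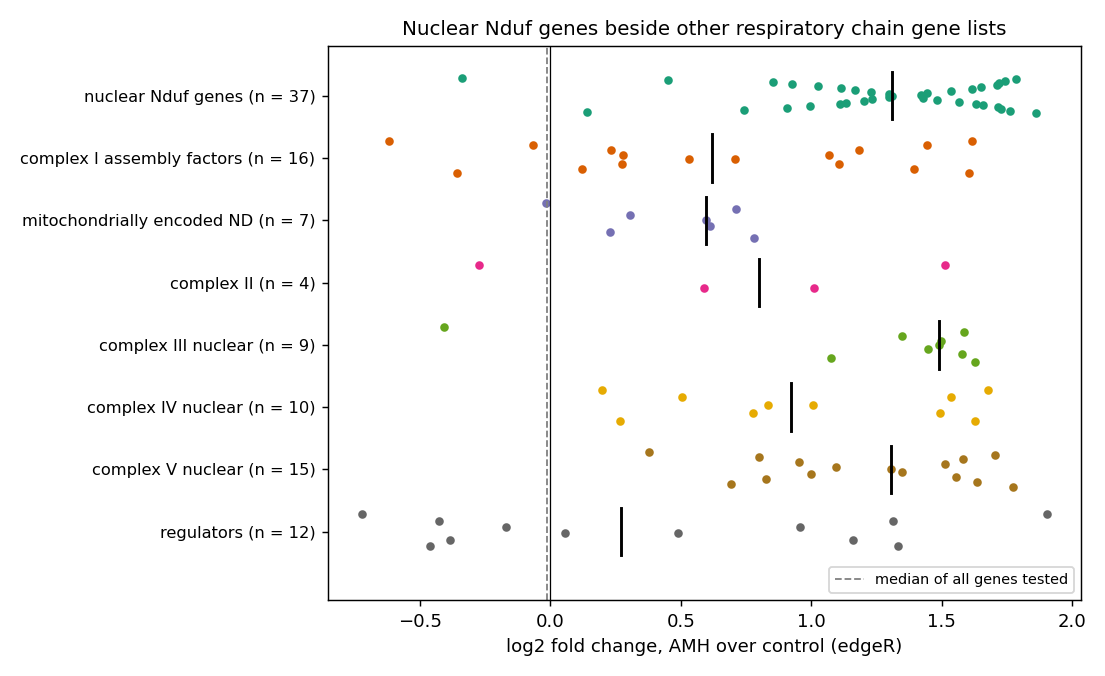
Log2 fold change of AMH over control (edgeR) for each gene of 8 lists of the respiratory chain (points; black bars are list medians; dashed line is the median of all genes tested). The median is 1.31 for the 37 nuclear Nduf genes, 0.62 for assembly factors, 0.60 for mitochondrially encoded ND genes and 0.27 for regulators.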

How the data were processed

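RNA of mouse oocytes was measured in 6 libraries, 3 AMH and 3 control. Per the labels' protocols, a SMART v4 kit amplified the RNA, and poly-T beads selected messenger RNA. The authors deposited whole-number counts per gene and FPKM values per gene. The submitters' processing notes name HISAT2 2.0.5, featureCounts 1.5.0-p3, DESeq2 1.20.0, GRCm38 and mm10. Roles, filters and the strand setting of these tools were not given in the sources used here. All 37 genes were found in GENCODE M21, 33 with identical positions.

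The main test was edgeR 4.0.16 (R 4.3.3), a robust quasi-likelihood fit with TMM scaling, filterByExpr, group as the only term and Benjamini-Hochberg adjustment at 0.05 over 18868 genes. CPM values are on the TMM-scaled library size, and standard errors come from the F statistic. DESeq2 1.42.0 and limma 3.58.1 (voom, and log2(FPKM + 1) in 11894 genes, those that exceeded 1 FPKM in 3 or more libraries) were alternatives, with other scalings, filters, covariates and left-out libraries. Fits were tested on simulated data. A fold change on log2(FPKM + 1) understates low genes.

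Genes named were the core subunits (1 of which is not reported here by name), the 3 smallest and the largest p of each accessory group, any member with a negative fold change, Ndufa4, Ndufa4l2, Ndufab1, and the smallest p per direction among assembly factors (3) and regulators (2). The members and lists were chosen with earlier results of these data known. Atp5o has duplicate rows and was left out.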

Additional observations from a re-analysis of the deposited data

How the results depend on the processing

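The median log2 fold change of the 37 genes was positive in all alternatives run. It was 2.07 when libraries were scaled to the oocyte markers, 0.87 with the cumulus marker covariate, 1.775 with control 3 and AMH 3 both left out and 1.81 for DESeq2 without both. Over the runs that left out 1 library it was 1.13 to 1.631. The number called was 33 with DESeq2, 29 with DESeq2 and the replicate block (3672 of 19861 genes over all), 35 with control 3 and AMH 3 both left out (9885 of 19381) and 34 for DESeq2 without both (10325 of 21845). It was 0 to 34 for edgeR and 0 to 33 for limma on log2 FPKM over the runs that left out 1 library (33 without control 3, with 6891 of 11706 genes over all, and 30 without AMH 3, with 4411 of 11599). The cause of these differences was not tested. Between 33 and 37 genes were above every control over the alternatives that give this count. The median of all genes, -0.01 with TMM, was 0.74 when scaled to the oocyte markers, -0.23 under upper-quartile scaling and 0.26 under library size alone. The sign turned for Ndufa4, at -0.10 with upper-quartile scaling, and for Ndufa10, at 0.39 with scaling to the oocyte markers. With all genes kept, no member was called and the median was 1.30. The share of all genes called in that fit is not given.

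Deviations of same-number AMH and control libraries correlated at 0.0596, -0.103 and -0.250, and those of other pairs at -0.30 to 0.32. With 3 libraries a group these correlations cannot exclude pairing by replicate number. AMH 3 and control 3, a same-number pair, were the closest libraries over all genes. With the replicate block edgeR called 0 of the 37, at a median of 1.455, and limma on log2 FPKM called 0. No share over all genes is given for either fit.

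Depth was lowest for Ndufb2, with 2.30, 2.13 and 2.23 CPM in AMH and 0.915, 0.577 and 1.21 CPM in control libraries. The labels give no batch.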

Other observations

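The other 4 rows that match the name pattern are not protein-coding. Ndufb1-ps, annotated as a bidirectional promoter lncRNA, had 1264, 1075 and 669 counts in AMH 1, 2 and 3 and 636, 772 and 498 counts in controls 1, 2 and 3, so AMH 3 was below control 2. The processed pseudogenes Ndufb4c and Ndufs6b had at most 30 counts in any library, and Ndufa11b had 0 in all 6. Some overlapping neighbours had higher values in AMH libraries too. Mrpl36, opposite Ndufs6, had 1590, 1404 and 921 counts in AMH and 382, 133 and 475 in control libraries, and Rbm10, opposite Ndufb11, had 2736, 2168 and 1445 in AMH and 398, 185 and 1152 in control libraries. Other neighbours were not higher in AMH libraries. Tmco6, opposite Ndufa2, had 2897, 2591 and 3679 counts in AMH and 3463, 3694 and 3765 in control libraries. Unscaled counts of Tfpt, Kbtbd4, Mrpl47 and Braf also overlapped between groups, for Mrpl47 only by 1650 in AMH 1 against 1648 in control 1. TMM factors were 1.17, 1.15 and 0.988 in AMH 1, 2 and 3. They were 0.894, 0.894 and 0.942 in controls 1, 2 and 3. Overlap of unscaled counts thus does not show that scaled values overlapped. All of these neighbours were picked after their values were seen.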
